A study of Mus musculus with 16 samples.

Results

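The p53 target genes described here are 32 mouse genes that are generally regarded as targets or regulators of the transcription factor p53, taken from a list set by gene name. Of these, 30 had at least 1 probe set annotated to that gene alone, with 56 probe sets between them, out of 18193 genes and 45037 probe sets tested on the arrays. The 2 others, Trp53 (p53 itself) and Bax, were not analysed here. Each gene was read from the probe set with the highest mean log2 signal over all arrays, and its other probe sets are given where they bear on a call.

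The 30 genes were followed in RNA from MC/9, a growth factor-dependent mouse mast cell line, and in exosomes, the small vesicles of endosomal origin that the cells release into the medium. There were 4 arrays in each of 4 groups, namely cells from normal conditions (norm cell), cells from oxidative stress (oxi cell), exosomes from normal conditions (norm exo) and exosomes from oxidative stress (oxi exo). In the paper's methods the normal condition is vehicle and the oxidative stress is 125 µM H2O2 for 24 h, and the cells are the donors of the exosomes. The sample labels instead describe the cells as having been given exosomes of each condition, so for the cell arrays the exposure was taken from the paper and the group from the labels. All groups share the 1 cell line, and no genetic change or other agent is given. Whether the 4 arrays of a group came from separate cultures is given for only some of them, so the p-values measure the spread between arrays, part of which may be technical.

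p53 is a transcription factor that is kept at a low level by the ubiquitin ligase Mdm2 and accumulates when DNA is damaged or cells are stressed, as by oxidants. It binds response elements made of a pair of adjoining decamers, mostly near the start of its target genes, and raises their transcription. Its targets stop the cell cycle, lead to apoptosis, take part in DNA repair and limit reactive oxygen species, and Mdm2 is itself a target, which closes a negative feedback loop.

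The signals are MAS5.0 intensities, which the authors scaled on each array to a trimmed mean of 100, so all differences are relative to the rest of the array. Signals of different genes come from different probes and cannot be ranked against each other. As background, the 95th percentile was taken on every array over 203 probe sets whose genes belong to unrelated specialised tissues. A gene counted as detected in a group if all 4 arrays exceeded this level. Background averaged 14.0 ± 0.481 (SD, n = 4) for norm cell, 11.2 ± 0.615 for oxi cell, 217 ± 27.2 for norm exo and 234 ± 16.9 for oxi exo. The spiked hybridization controls were 17.3 times higher on norm exo than on norm cell arrays and 20.8 times higher on oxi exo than on oxi cell arrays. All 10 mast cell markers were detected in both cell groups, 7 in norm exo and 2 in oxi exo. Their summed signal ran from 48886 to 53287 in norm cell, from 36636 to 43862 in oxi cell, from 4455 to 7135 in norm exo and from 1704 to 2576 in oxi exo. None of the 4 T lymphocyte or 4 B lymphocyte markers was detected in any group. Of the 4 macrophage and neutrophil markers, 1 was detected in norm cell and 2 in oxi cell, with a summed signal of 59.0 to 69.8 and of 49.9 to 67.1. Of the 3 erythroid markers, 1 was detected in each cell group, and of the 5 fibroblast markers 1 in norm cell and 0 in oxi cell, with 0 of these 3 kinds detected in exosomes.

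The first comparison asked how the p53 target genes differed between oxi cell and norm cell. In cells, 13 of the 30 genes were higher in oxi cell, 0 were lower and 17 did not pass the test (limma, blocked by replicate number, with Benjamini-Hochberg adjustment across the 45037 probe sets and a threshold of 0.05). Among all probe sets, 4.31% were called higher and 5.51% lower. Both cell groups showed 21 of the genes above background on every array, and 12 of these were called higher, where 9.65% of the 19616 probe sets detected in both cell groups were called higher. The median log2 difference of the 30 genes was 0.43, against -0.15 for all probe sets. The 13 genes were also without overlap, with every oxi cell array above every norm cell array, which 6.38% of all probe sets and 13.4% of those detected in both groups showed. The genes were picked for their known link to p53, but with earlier results of these data known. These values therefore describe the genes without a test of the list as a whole. RNA came from whole cultures, so fewer cells of a kind and less RNA per cell cannot be told apart. In the paper the H2O2 dose used killed a sizeable part of the cells, and the bearing of this on the values was not tested.

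**Figure D1:**
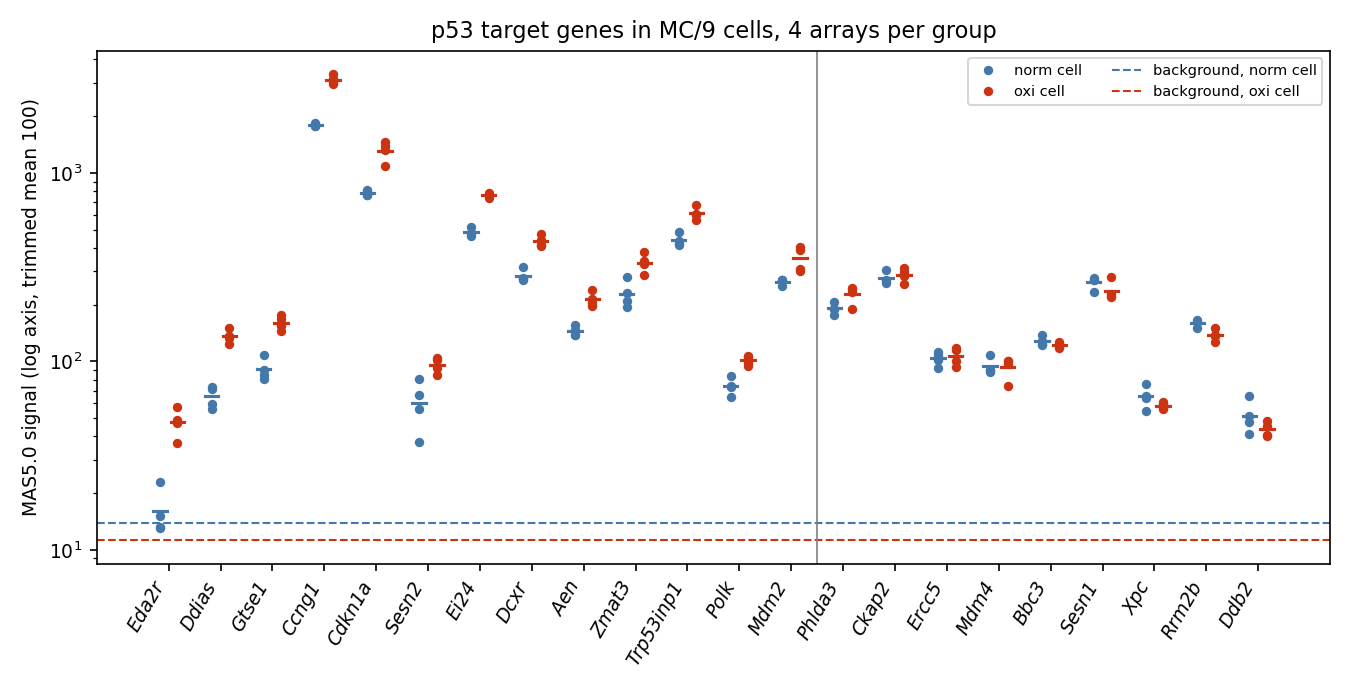
MAS5.0 signals (log axis) of the 22 p53 target genes detected in norm cell or oxi cell, with 1 point per array, a bar at the mean of each group of 4 arrays and dashed lines at the mean background. Genes left of the vertical line were called higher in oxi cell, and for each of these 13 all oxi cell points lie above all norm cell points. Heights of different genes are not comparable.

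Of the 2 measured regulators of p53, Mdm2 rose and Mdm4 did not pass the test. Mdm2, the ligase that marks p53 for degradation, had signals of 269, 270.4, 269.6 and 251 on the norm cell arrays and 392, 405, 302 and 311 on the oxi cell arrays. The groups did not overlap, and 2 of the oxi cell arrays stood apart above the other two. The log2 difference was 0.40 ± 0.0809 (SE, n = 4 pairs), a fold change of 1.32, with an adjusted p of 0.00927 (limma). A second detected Mdm2 probe set was also higher (log2 difference 0.48, adjusted p = 0.00107), whereas the remaining one was not detected. The call did not hold with either of the first 2 replicate numbers left out, with an adjusted p of 0.055 without replicate 1 and 0.0639 without replicate 2. Mdm4, the Mdm2 relative that masks the activation domain of p53, showed 90.03, 108, 88.2 and 89.9 on the norm cell arrays and 100.1, 101, 97.3 and 73.96 on the oxi cell arrays. These overlapped, and the log2 difference was -0.02 ± 0.110. Another Mdm4 probe set was above background on 0 of 4 norm cell and 4 of 4 oxi cell arrays and did not pass the test either (log2 difference 0.995, adjusted p = 0.272), and a further one gave 0.73 (adjusted p = 0.403).

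Among the 7 genes of cell cycle control and growth arrest, Cdkn1a, Ccng1 and Gtse1 rose, Ckap2 was detected without passing the test, and Gadd45a, Btg2 and Plk2 were not detected in either cell group. Gadd45a was above background on 0 of 4 norm cell and 3 of 4 oxi cell arrays, Btg2 on 2 and 0, and Plk2 on none. Cdkn1a encodes p21, the inhibitor of cyclin-dependent kinases that carries out much of the arrest induced by p53. Its signals were 766, 764, 805 and 812 on the norm cell arrays and 1454, 1321, 1382 and 1089.6 on the oxi cell arrays. All 4 oxi cell arrays stood above all norm cell arrays, by 1.66-fold on average (log2 difference 0.73, adjusted p = 0.000246). A second Cdkn1a probe set gave a log2 difference of 1.10 (adjusted p = 0.000688).

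Ccng1, cyclin G1, which binds protein phosphatase 2A and takes part in the Mdm2 loop, had signals of 1784, 1851, 1790.1 and 1770.5 on the norm cell arrays and 3025, 2981, 3146 and 3346 on the oxi cell arrays. The spread within each group was small beside the 1.74-fold difference (log2 difference 0.80, adjusted p = 2.86e-05). The other two probe sets of Ccng1 were also higher in oxi cell, by 1.02 and 0.79 on the log2 scale. Gtse1, a microtubule-binding protein of the G2 and S phases that moves p53 out of the nucleus, rose from 90.8 ± 11.8 (SD, n = 4) to 160.3 ± 13.6 (log2 difference 0.83, adjusted p = 0.000426). Ckap2, a protein of the mitotic spindle, gave 276 ± 20.1 and 289 ± 23.9, a log2 difference of 0.06 ± 0.0675 that did not pass the test.

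The letters of the promoters of these genes were read because p53 binding elements are well known near some of them. The windows are from RefSeq on GRCm38.p6 and run from 250 bases before to 50 bases after an annotated start, and 22 of the 30 measured genes had at least 1 window in the table. The p53 decamer consensus, which reads the same on both strands, was searched without mismatch, and a full element was taken as 2 decamers at most 1 base apart with at most 2 mismatches in all, none of them at the central C and G of a decamer. A decamer was found in 10 of the 22 genes (45.5%), against 9.55% of the 27025 genes in the table, and a full element in 4 (18.2%), against 0.81%. Some of these genes were assigned to p53 in part because of such sequences, so these shares describe the list and are not a test. Of the 10 genes with a decamer, 7 were called higher in oxi cell, and of the 12 without one, 4 were. These counts are not on a like footing, since detection differed. Of the genes without a decamer, Btg2, Fas, Plk2 and Tnfrsf23 were not detected in either cell group, and of those with one, only Gadd45a was not. The 8 measured genes with no window in the table included 2 called higher, Trp53inp1 and Zmat3. No binding of p53 was measured in this series.

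The windows of the 3 genes that rose and held a full element are shown 5′ to 3′ on the strand of the gene, in lower case, with the decamers and full elements in capitals.
Cdkn1a, chr17:29090729-29091028, plus strand: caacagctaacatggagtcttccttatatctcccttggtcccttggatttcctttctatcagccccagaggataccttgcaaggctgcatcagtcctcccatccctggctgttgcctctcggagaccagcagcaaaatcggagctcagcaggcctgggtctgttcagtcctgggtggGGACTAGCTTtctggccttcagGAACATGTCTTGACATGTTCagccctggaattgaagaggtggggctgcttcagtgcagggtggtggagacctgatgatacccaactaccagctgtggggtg
Ccng1, chr11:40755237-40755536, minus strand: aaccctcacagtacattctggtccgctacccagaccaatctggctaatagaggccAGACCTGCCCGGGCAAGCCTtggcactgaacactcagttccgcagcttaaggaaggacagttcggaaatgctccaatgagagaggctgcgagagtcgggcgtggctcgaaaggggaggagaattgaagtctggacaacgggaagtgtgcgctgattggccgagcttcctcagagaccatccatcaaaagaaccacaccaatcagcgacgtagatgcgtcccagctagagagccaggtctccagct
Gtse1, chr15:85859696-85859995, plus strand: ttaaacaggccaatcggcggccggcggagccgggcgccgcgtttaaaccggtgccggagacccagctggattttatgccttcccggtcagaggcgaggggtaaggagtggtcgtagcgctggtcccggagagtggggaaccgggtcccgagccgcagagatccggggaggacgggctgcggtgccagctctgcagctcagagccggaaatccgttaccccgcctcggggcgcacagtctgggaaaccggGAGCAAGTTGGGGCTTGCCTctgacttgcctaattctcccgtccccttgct

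In Cdkn1a the element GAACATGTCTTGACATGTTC began 51 bases before the upstream start, at -2841 from the other annotated start, and held 1 mismatch. A separate decamer, GGACTAGCTT, lay at -73. The window of the other Cdkn1a start held no decamer. The Ccng1 element began at -195 and the Gtse1 element at -1, the base just before the start, each with 1 mismatch. The Gtse1 element lay 238 bases after the other annotated start of the gene, whose window held no decamer. Ckap2, which did not pass the test in cells, held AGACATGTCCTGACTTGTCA (chr8:22186003-22186022, minus strand) with 2 mismatches, beginning at -203, so a full element was present both in genes that rose and in one that did not.

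Of the 6 other measured genes with a lone decamer, 4 rose (Mdm2, Aen, Ei24 and Polk), 1 was detected without passing the test (Sesn1) and 1 was not detected (Gadd45a). Their decamers are given to show how the letters compare.
Mdm2: GAACTTGCCT
Ei24: GGGCATGCCC
Aen: GGGCTTGTCC
Polk: GAACTAGCCT
Sesn1: AAGCTTGTTT
Gadd45a: GGGCTAGCCC
They began at -186 in Mdm2, at -10 in Ei24, at -231 in Polk, at -173 in Sesn1 and at -40 in Gadd45a. Polk and Sesn1 each have another annotated start upstream, whose window held no decamer. From that start the decamer lay 23161 bases downstream in Polk and 76692 in Sesn1. The Aen decamer lay in the windows of both of its starts, at 11 and at -121.

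**Figure D2:**
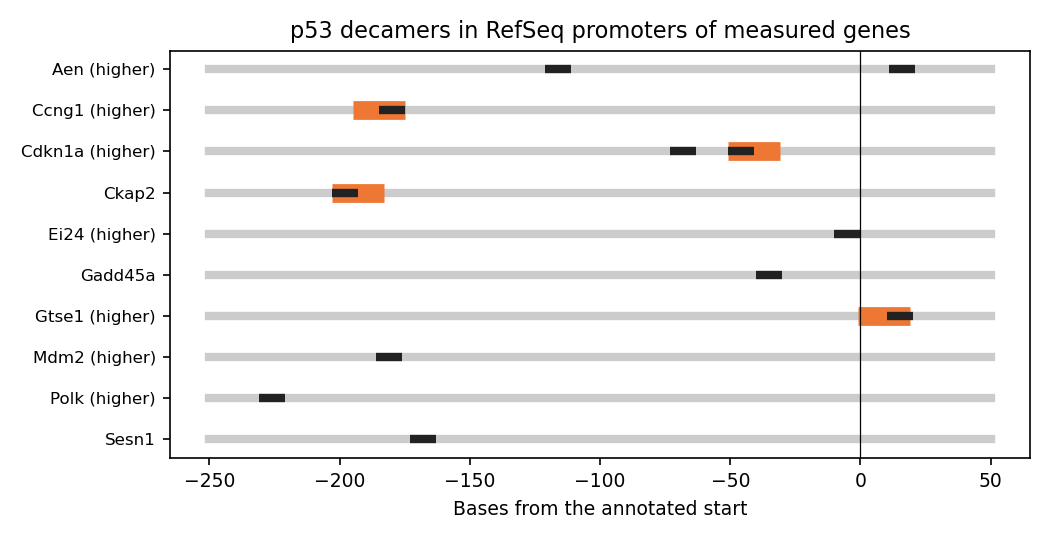
Position of p53 decamers (black) and full elements (orange) relative to the annotated start (x axis, in bases, with the grey bars spanning the 300-base window) in the 10 measured genes that held one. Genes marked as higher were called higher in oxi cell; for Aen the same decamer is drawn relative to both of its starts. The matches lie from -231 to 11, without a common position.

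The list of apoptosis and death receptor genes had 13 measured members, of which 6 rose in oxi cell, 2 were detected without passing the test and 5 were not detected in either cell group. Eda2r, a tumour necrosis factor receptor family member that binds ectodysplasin A2, had signals of 13.2, 22.9, 13.01 and 15.2 on the norm cell arrays and 49.1, 56.9, 37.1 and 47.04 on the oxi cell arrays. Only 2 of the 4 norm cell arrays were above background, against all 4 oxi cell arrays, and the groups did not overlap. Its log2 difference of 1.59 ± 0.209 was the largest of the 13 genes called (adjusted p = 0.000882). Its size is uncertain with norm cell signals so near background. Ddias, a nuclear factor that restrains apoptosis after DNA damage, showed 59.2, 56.1, 71.8 and 73.6 on the norm cell arrays and 137, 132, 124 and 150.5 on the oxi cell arrays. These did not overlap either (log2 difference 1.07, adjusted p = 0.000242), and a second Ddias probe set gave 1.51.

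Ei24, a protein of the endoplasmic reticulum membrane that was first found as a p53-induced transcript, had signals of 517, 463, 482 and 478 on the norm cell arrays and 779, 759.9, 739 and 770.4 on the oxi cell arrays, which is a rise of 1.57-fold (log2 difference 0.65, adjusted p = 9.78e-05). Zmat3, a zinc finger protein that binds RNA, rose by 0.56 (adjusted p = 0.0016), from 228 ± 37.9 to 334 ± 37.8. Aen, a nuclease that acts in apoptosis, rose by 0.56 (adjusted p = 0.0018), from 145 ± 8.004 to 213 ± 18.1. None of the 3 other Aen probe sets passed the test, with log2 differences of 0.42, 0.33 and -0.17. Trp53inp1, a stress protein of the nucleus and of autophagy, rose by 0.48 (adjusted p = 0.000628), from 439 ± 31.997 to 611 ± 45.8. Its second probe set had the opposite sign without passing the test (log2 difference -0.59, adjusted p = 0.333).

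Bbc3 and Pmaip1, which act on the mitochondrion, were not among the genes that rose. Bbc3, which encodes the BH3-only protein PUMA, was detected in both cell groups, with 138, 128, 122 and 124 on the norm cell arrays and 121, 124, 117 and 127 on the oxi cell arrays. The groups overlapped and the log2 difference was -0.06 ± 0.0878. Pmaip1, which encodes the BH3-only protein NOXA, was not above background on any of the 8 cell arrays, so neither a level nor a difference can be given. Phlda3, which competes with Akt for membrane lipids, gave 191 ± 12.8 and 228 ± 25.7 (log2 difference 0.25, adjusted p = 0.112). The death receptors Fas and Tnfrsf10b were above background on 0 of 4 norm cell and 1 of 4 oxi cell arrays each, the decoy receptor Tnfrsf23 on 1 and 0, and the membrane protein Perp on none. These bounds depend on the probe sets and do not show that the transcripts were absent.

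DNA repair and nucleotide supply had 5 measured members, all detected in both cell groups, of which Polk alone rose. Polk, the translesion DNA polymerase kappa, had signals of 74.3, 83.6, 73.1 and 64.5 on the norm cell arrays and 95.04, 98.4, 107 and 106 on the oxi cell arrays. The groups did not overlap (log2 difference 0.47, adjusted p = 0.0242), but the call did not hold without replicate 1, 3 or 4 (adjusted p = 0.0635, 0.0684 and 0.118), and a second Polk probe set gave 0.60 (adjusted p = 0.181). Ddb2 and Xpc recognise damage in nucleotide excision repair, Ercc5 cuts beside it, and Rrm2b is a ribonucleotide reductase subunit. Their log2 differences were -0.21 ± 0.154, -0.16 ± 0.126, 0.03 ± 0.114 and -0.21 ± 0.0820 (SE) in that order, and none passed the test. A second Ercc5 probe set gave -1.91 (adjusted p = 0.19) and was not above background on any array. A second probe set of Ddb2 was lower on every oxi cell array, the 1 probe set of the 56 with such a pattern, without passing the test (log2 difference -0.45, adjusted p = 0.0897). Of all probe sets 9.72% showed such a pattern, and of those detected in both cell groups 16.9%.

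Of the 3 antioxidant and metabolic genes, Dcxr and Sesn2 rose and Sesn1 did not pass the test. Dcxr, a reductase of dicarbonyls and L-xylulose, had signals of 318, 278, 274 and 269 on the norm cell arrays and 417, 440.2, 474 and 411 on the oxi cell arrays. It was higher on every oxi cell array, by 1.53-fold (log2 difference 0.61, adjusted p = 0.000598). The sestrins are stress proteins that lower peroxide levels and restrain mTORC1. Sesn2 had 56.1, 80.7, 37.4 and 66.6 on the norm cell arrays and 102, 85.1, 105 and 92.5 on the oxi cell arrays, without overlap (log2 difference 0.72, adjusted p = 0.0329). Its call did not hold with 16 added to each signal before the log2 (adjusted p = 0.0637), without replicate 1, 3 or 4 (0.13, 0.0969 and 0.0644), or on its second probe set (log2 difference 1.32, adjusted p = 0.0941). Sesn1 gave 232, 269, 278 and 272 on the norm cell arrays and 228, 219, 282 and 222 on the oxi cell arrays. The log2 difference was -0.15 ± 0.0796 (adjusted p = 0.307), and its 3 other probe sets ran from -0.43 to -0.19 without passing the test.

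Counted by probe set, 18 of the 56 were called higher in oxi cell and 0 lower. The direction was the same under both other scalings. Scaling to the spiked controls raised the log2 difference of every probe set by the same amount, so no rise could turn under it. With the signals quantile-normalized 13 genes were higher, and with the arrays scaled to the spiked controls 15, Phlda3 and Ckap2 being added, and 0 were lower under either. The median of all probe sets was -0.15 as deposited, 0.00 after quantile normalization and 0.15 after scaling to the spiked controls, and across the arrays 1941 probe sets were called higher and 2483 lower as deposited, 2075 and 1818 after quantile normalization, and 6443 and 430 after scaling to the spiked controls. As a sign of RNA integrity, Gapdh had a 3′ signal over its 5′ signal of 0.832 ± 0.00767 for norm cell and 0.851 ± 0.0220 for oxi cell. The summed signal of the 10 mast cell markers was lower on every oxi cell array, as given above. The markers did not all move alike. Hdc had a higher mean (804 in norm cell, 1198 in oxi cell), Kit a similar one (1595 and 1616) and the others a lower one. The part of these differences in the results was not tested.

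A further 3 lists of the pathway were read in cells beside the p53 target genes. For comparison, 4.31% of all probe sets were called higher in oxi cell and 5.51% lower. Of the 19616 probe sets detected in both cell groups, 1893 were called higher and 2346 lower. The lists were chosen with earlier results of these data known, and no list was tested as a whole. Genes that are held down when p21 and the DREAM complex act, which mostly serve mitosis, had 15 measured members, of which 12 rose in oxi cell and 0 fell, with a median log2 difference of 0.34. The 4 largest differences were those of Ube2c, a ubiquitin-conjugating enzyme of mitosis (1.01, adjusted p = 2.17e-05), Ccnb2, cyclin B2 (0.79, adjusted p = 3.89e-05), Aurka, the mitotic kinase Aurora A (0.76, adjusted p = 8.53e-05), and Cdc25c, the phosphatase that opens mitosis (0.73, adjusted p = 0.001). Cdkn1a and most of the measured genes of this list were higher together in the same cultures.

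Other genes reported as p53 targets had 30 measured members, of which 6 rose and 3 fell, with a median of 0.04. The 4 largest differences were those of Atf3, a stress-induced transcription factor (2.36, adjusted p = 0.0318), Ak1, an adenylate kinase (1.02, adjusted p = 0.00187), Casp1, the inflammatory caspase (0.997, adjusted p = 2.86e-05), and Fhl2, a LIM domain cofactor (0.70, adjusted p = 0.00402). The groups of Atf3 overlapped, and its size is uncertain, since only 1 of the 4 norm cell arrays, against all 4 oxi cell arrays, exceeded background. The 3 that fell, named here after their values were seen, were Cd82 (-0.53), Tap1 (-0.39) and Bid (-0.25). Steap3, a metalloreductase known for its part in exosome release under p53, gave -0.36, adjusted p = 0.307. The kinases and cofactors that act upstream of p53 had 24 measured members, of which 1 rose and 4 fell, with a median of -0.08. The falls in these lists are named as single genes. Their number was not tested against the share of lower calls among all probe sets. The kinase Hipk2 rose (0.71, adjusted p = 0.000124), and the p53 inhibitor Ppp1r13l (-0.59), the deacetylase Sirt1 (-0.39), the damage kinase Atm (-0.31) and, named after its value was seen, the acetyltransferase Ep300 (-0.27) fell. With scaling to the spiked controls, none of the falls in these lists passed the test, and the rises were 14, 9 and 6. With a replicate number left out, the rises of the p21 and DREAM list ran from 8 to 10 and the falls of the upstream list from 1 to 3, with 1 without replicate 1 or 2.

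**Figure D3:**
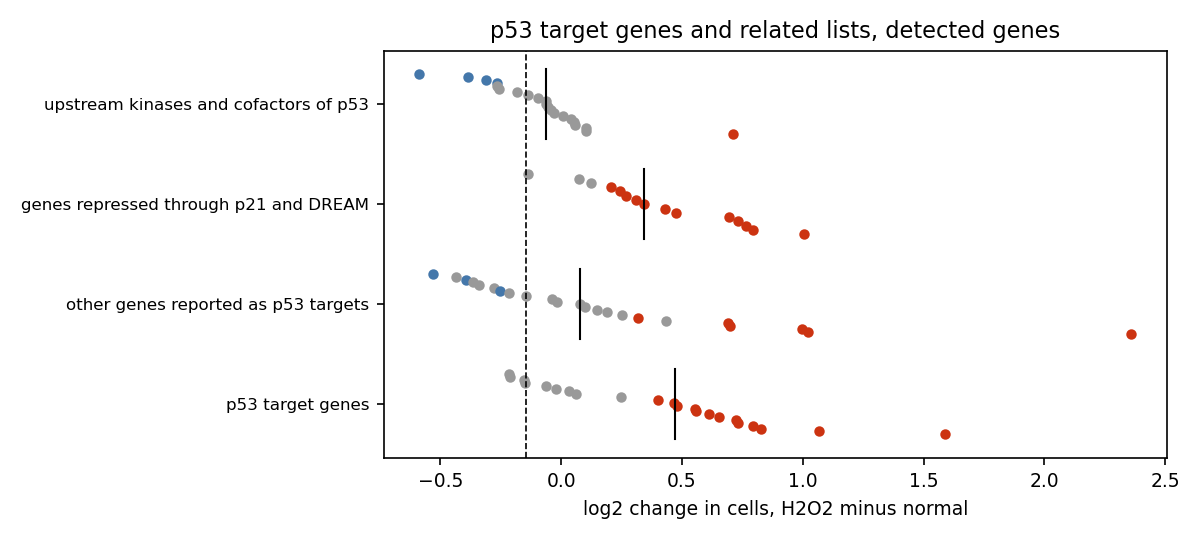
Log2 difference in cells, oxi cell minus norm cell (x axis), of each detected gene of the p53 target genes and of 3 related lists, with 1 point per gene; red points were called higher, blue points lower and grey points neither. Black bars mark the median of the detected genes of a list and the dashed line the median of all probe sets, -0.15. Among probe sets detected in both cell groups the median was -0.07, which is not drawn.

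The next comparison was that of oxi exo with norm exo. Few of the p53 target genes could be measured in exosomes, and of the 30, 0 were called higher and 2 lower, Ccng1 and Ei24. Among all probe sets, 0.0311% were called higher and 1.7% lower. Only 2 of the genes were above background on all norm exo arrays (Ccng1 and Ei24) and 2 on all oxi exo arrays (Ei24 and Phlda3), while norm cell had 21 and oxi cell 22. Over all probe sets, detection reached 5.01% for norm exo and 3.42% for oxi exo, compared with 45.2% and 45.6% for the cell groups. Ei24 was the 1 gene detected in both exosome groups, and of the 1181 probe sets detected in both 28.9% were called lower.

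Ei24 had signals of 1769, 1581, 1093 and 1094 on the norm exo arrays and 634, 905, 682 and 538 on the oxi exo arrays. No oxi exo array reached the lowest norm exo array, and the log2 difference was -0.998 ± 0.206 (adjusted p = 0.015). Ccng1 had 801, 826, 694 and 727 on the norm exo arrays and 352, 459, 214 and 128 on the oxi exo arrays, with 2 of the oxi exo arrays at or below their background. The groups did not overlap (log2 difference -1.56, adjusted p = 0.0052). A second Ccng1 probe set gave -0.47 without passing the test, and the remaining one, at or below background on all exosome arrays, gave 0.32 (adjusted p = 0.904). The Ei24 call did not hold with quantile normalization (adjusted p = 0.653), with scaling to the spiked controls (0.0975), or without replicate 1 (0.142) or 2 (0.0561), and the Ccng1 call did not hold with quantile normalization (0.0837). The same Gapdh ratio was 1.64 ± 0.152 for norm exo and 1.89 ± 0.373 for oxi exo, and the summed mast cell markers were lower on every oxi exo array than on any norm exo array. The part of either in these differences was not tested.

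A few other genes were above background on some of the exosome arrays. Phlda3 had 283, 249.95, 233 and 118 on the norm exo arrays and 299.8, 235, 395 and 289.5 on the oxi exo arrays, which overlapped (log2 difference 0.51, adjusted p = 0.659). Mdm2 had 262, 307, 175 and 276 on the norm exo arrays and 168, 263, 267 and 318 on the oxi exo arrays and was above background on 3 arrays of each group (log2 difference -0.01, adjusted p = 0.996). Zmat3, above background on 3 norm exo arrays and 1 oxi exo array, gave -1.71 ± 0.476 (adjusted p = 0.107). Trp53inp1 was above background on 3 and 2 arrays, with a log2 difference of 0.14 ± 0.324. Aen and Cdkn1a were each above background on 1 norm exo array and on no oxi exo array, and Ddias on 1 oxi exo array. By the probe set read for each, the 21 remaining genes were at or below background on all 8 exosome arrays, among them Gtse1, Eda2r, Dcxr, Sesn2 and Polk, which rose in cells, and no direction can be read from these probe sets. A second probe set of Sesn2 was above background on 1 oxi exo array, and one of Mdm4 on 1 norm exo and 2 oxi exo arrays (log2 difference 1.33, adjusted p = 0.61).

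The change in exosomes was set against the change in cells through the 4 differences in exosomes and the 4 in cells within replicate numbers. It differed for 2 of the 30 genes, where 1.47% of all probe sets were called lower and 0.0933% higher. For Ccng1, up in cells and down in exosomes, the log2 change in exosomes minus that in cells was -2.35 ± 0.326 (SE, adjusted p = 0.0078, limma). On the other two Ccng1 probe sets the value did not pass the test (-1.49, adjusted p = 0.0993, and -0.47, adjusted p = 0.764). For Ei24, which moved in the same 2 directions, it was -1.65 ± 0.243 (adjusted p = 0.00944). Neither call held with quantile normalization (adjusted p = 0.0989 and 0.248) or with a replicate number left out in some cases. For Ccng1 the adjusted p was 0.0673 without replicate 1 and 0.0576 without replicate 2, and for Ei24 it was 0.073, 0.0936 and 0.0538 without replicate 1, 2 and 4. For Cdkn1a, Mdm2 and the rest, a p that misses the threshold does not show that the 2 changes were alike.

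**Figure D4:**
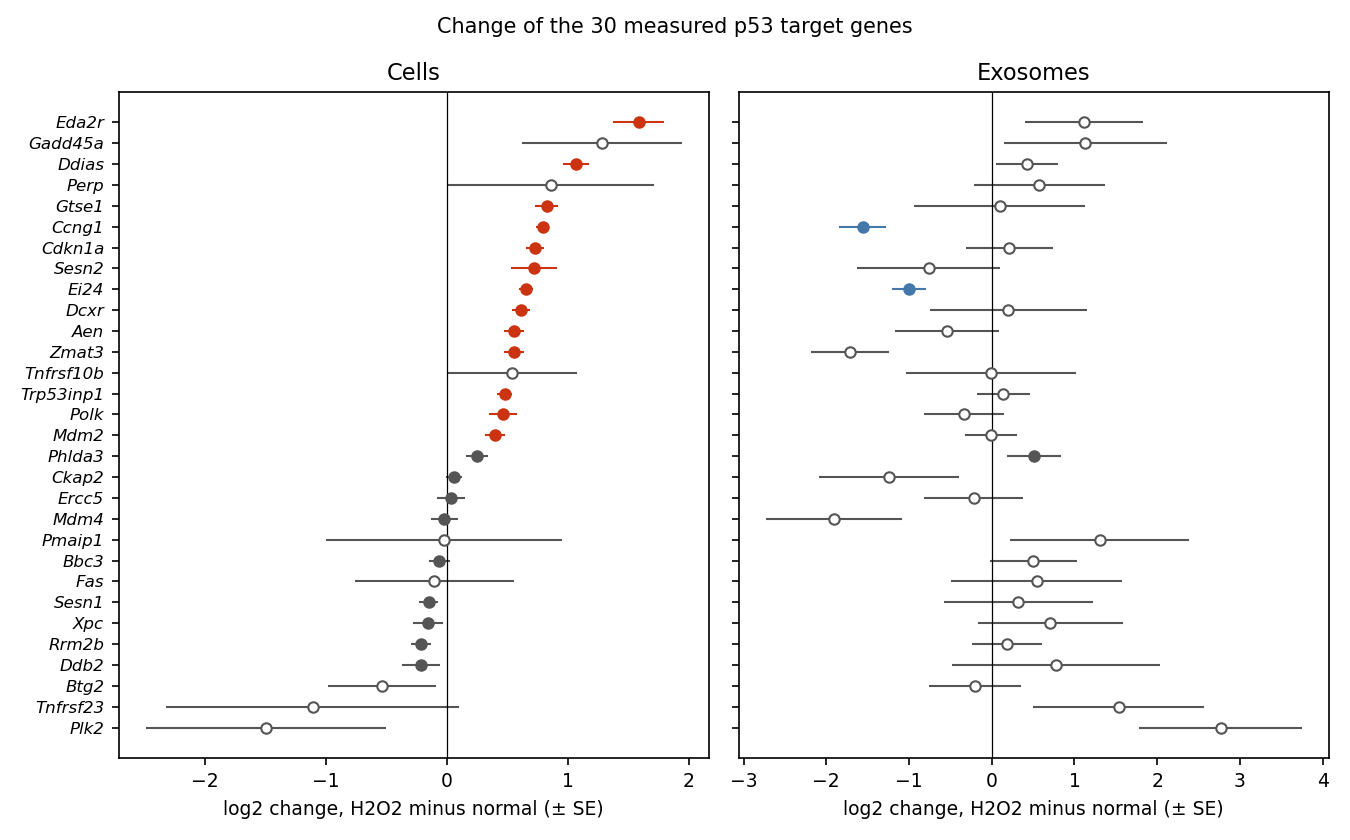
Log2 difference, H2O2 minus normal (x axis, with SE), of the 30 measured p53 target genes in cells (left) and exosomes (right), in the order of the change in cells. Filled points were detected on all 4 arrays of at least 1 of the 2 groups and open points were not; red marks genes called higher, blue genes called lower. In cells 13 genes are red and 0 blue, and in exosomes 0 red and 2 blue (Ccng1 and Ei24).

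The last comparison set exosomes against cells of the same condition. In norm exo 7 genes were called higher and 7 lower than in norm cell, where 57.7% of all probe sets were called higher and 19% lower, and in oxi exo 8 were called higher and 10 lower than in oxi cell, where the shares were 60.8% and 19.4%. The medians of all probe sets were 2.23 and 2.67 on the log2 scale, which fell to 0.15 and 0.21 with quantile normalization and to -1.88 and -1.71 with scaling to the spiked controls. Apart from Ei24 in normal conditions, the genes called higher in exosomes were at or below the background of the exosome arrays, so no fold is given for them.

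By the probe set read for each, Ccng1, Cdkn1a, Dcxr, Ckap2 and Trp53inp1 were lower in exosomes than in cells in both conditions. The log2 difference of Ccng1, exosomes minus cells, was -1.24 in normal conditions and -3.60 in oxidative stress (adjusted p = 0.000131 and 3.85e-05), and the first of these turned to 0.23 with quantile normalization. For Cdkn1a it was -2.69 in normal conditions (adjusted p = 0.000349), where 1 of 4 norm exo arrays was above background and the value was -1.83 with signals floored at background. In oxidative stress the gene was at least 5.58-fold lower, since it lay below background on all oxi exo arrays (adjusted p = 2.2e-05). Dcxr was at least 1.32-fold and 1.86-fold lower, and Ckap2 at least 1.28-fold and 1.23-fold lower, in the normal and stressed condition. Trp53inp1 gave log2 differences of -1.06 and -1.40 (adjusted p = 0.00296 and 0.00137), which did not pass the test with quantile normalization (0.255 and 0.34). A second Trp53inp1 probe set had the opposite sign, with 2.48 and 4.01 (adjusted p = 0.000871 and 9.47e-05), and was above background on 0 norm exo and 2 oxi exo arrays. Scaled to the spiked controls, its values were -1.63 and -0.37. Sesn1 was at least 1.22-fold lower in normal conditions (adjusted p = 0.00286). In oxidative stress its call did not hold with signals floored at background (log2 difference -0.02, adjusted p = 0.867).

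Ei24 differed from this pattern. Its signals were 517, 463, 482 and 478 in norm cell and 1769, 1581, 1093 and 1094 in norm exo, so every norm exo array was above every norm cell array (log2 difference 1.48, adjusted p = 0.000141), but this value became -2.63 once arrays were scaled to the spiked controls. In oxidative stress it was -0.17 ± 0.233 (adjusted p = 0.515), and oxi exo and oxi cell overlapped. Phlda3 and Mdm2 did not pass the test in either condition, with log2 differences of 0.14 and 0.40 for Phlda3 and of -0.09 and -0.50 for Mdm2. The second Mdm2 probe set, detected in both cell groups and above background on 0 of 8 exosome arrays, was at least 1.86-fold and 2.40-fold lower in the normal and stressed condition (adjusted p = 0.000549 and 9.25e-05). The third, above background on 1 norm cell array and 2 oxi exo arrays, gave 5.25 and 5.48 (adjusted p = 6.13e-05 and 8.66e-05), which became 1.14 and 1.10 with scaling to the spiked controls, without passing the test. The probe sets of Mdm2 therefore differed in direction. Zmat3 gave 0.48 in normal conditions (adjusted p = 0.108) and -1.78 in oxidative stress (adjusted p = 0.0123). In oxidative stress 1 of 4 oxi exo arrays was above background, and the value was -0.46 with signals floored at background (adjusted p = 0.000223). The floor sets the other oxi exo signals of Zmat3 to the background of their arrays. The p-value of that fit therefore measures in part the spread of the background. The Mdm4 probe set that was above background on 3 exosome arrays gave 3.24 and 3.83, which turned to -0.87 and -0.54 on arrays scaled to the spiked controls. The second Sesn2 probe set gave 1.06 in oxidative stress (adjusted p = 0.103), against -1.55 for the one read. Every other probe set whose sign or call differed from that of the one read was at or below background on all exosome arrays.

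**Figure D5:**
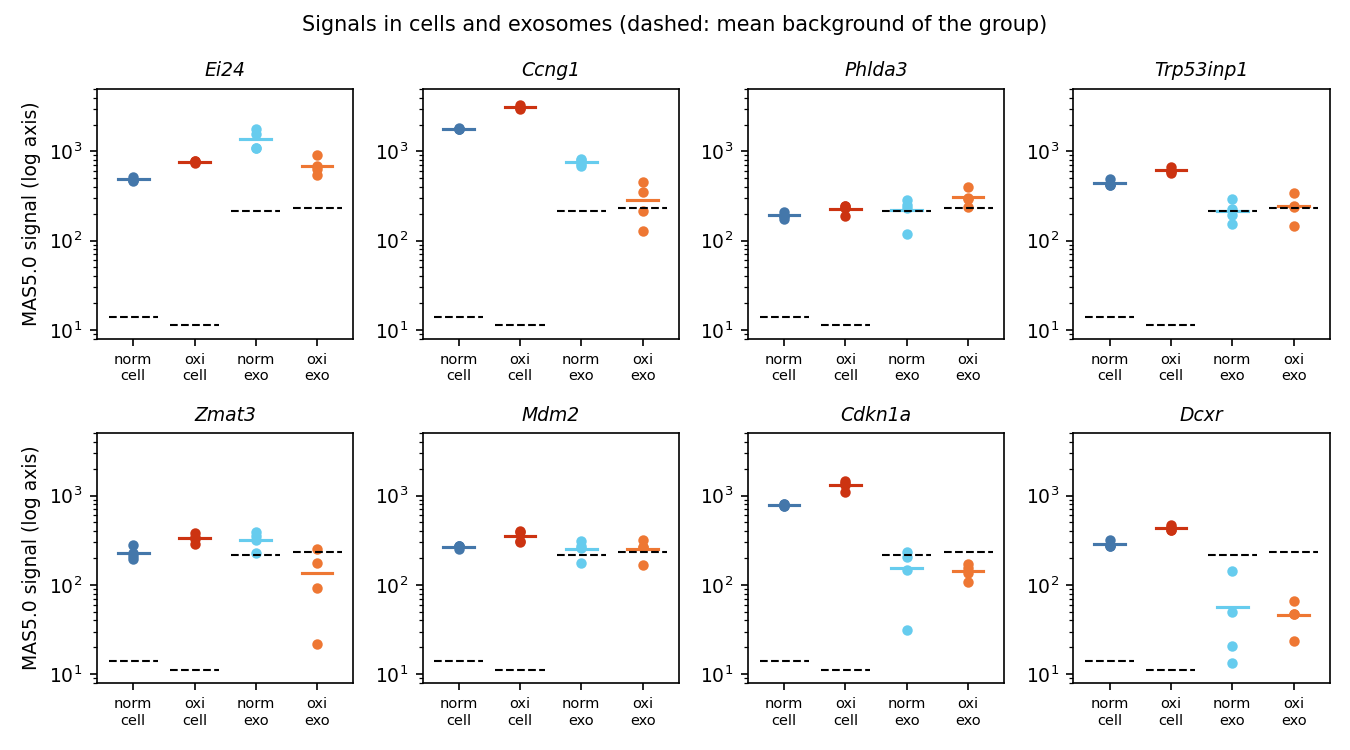
MAS5.0 signals (log axis) of 8 p53 target genes in the 4 groups, with 1 point per array, a bar at the group mean and a dashed line at the mean background of the group. The background is 217 and 234 on the exosome arrays against 14.0 and 11.2 on the cell arrays; Ei24 is above it on all arrays, and Cdkn1a and Dcxr are above it in cells but on at most 1 exosome array.

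Of the related lists, 0 of 15 genes held down through p21 and DREAM and 0 of 30 other p53 target genes passed the test between oxi exo and norm exo, and of the 24 upstream kinases and cofactors only Mapk14, the stress kinase p38 alpha, did, falling from a mean of 599.7 to 153, with 1 of 4 oxi exo arrays above background (-2.31, adjusted p = 0.00944). Between these groups 1.7% of all probe sets were called lower and 0.0311% higher.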

How the data were processed

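Biotinylated cRNA was made from RNA of MC/9 cells and exosomes, each with vehicle or H2O2, and hybridized to 16 Affymetrix mouse arrays, 4 per group. The authors made and deposited linear signal intensities with MAS5.0 (GCOS 1.2 per the submitters' processing notes) and scaled every array to a mean of 100 that leaves out 2% of its probe sets at either end. This scaling ties each signal to the rest of its array, so that a shift of most probe sets moves all others. The paper and the table differ in the array type they imply, and the table was used as deposited, with 45101 probe sets. Detection calls were not used here. The number of arrays limits the precision.

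After 64 Affymetrix control probe sets were left out, 45037 were tested. Gene symbols were those of GEO's platform annotation, of which 34945 probe sets carried 1, 932 several and 9160 none, and 34741 were found in RefSeq by gene ID. The members and the related lists were chosen with earlier results of these data known. Each gene was read from the probe set of highest mean log2 signal over the 16 arrays, every measured member is named, and of each related list the 4 largest changes past the threshold.

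Each comparison was a limma 3.58.1 fit (R 4.3.3, lmFit followed by eBayes with an intensity trend) to the log2 signals of all probe sets. Replicate numbers entered as a block, since a paired test is what the methods describe, and Benjamini-Hochberg adjustment covered the whole table, at a threshold of 0.05. All adjusted p are from these fits. As a check of the code, the fits of oxi against norm were run on simulated data with independent noise and known differences added. This does not test the calls made here. Bounds set a gene that was not above background on any array of a group at the higher of its own signal and the background of each array. Promoter windows were taken from RefSeq (GRCm38.p6). Tables and figures were made in Python 3.11.15 with pandas 2.3.3, numpy 2.4.6 and matplotlib 3.10.9. The alternatives tried were quantile normalization, the spiked controls (9 probe sets) as the scale, no replicate block, a filter on dim probe sets, log2(signal + 16), a floor at background, the probe set of highest mean signal on the linear scale, the methods' paired test on linear signals, each replicate number left out in turn, and a background at the 99th percentile.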

Additional observations from a re-analysis of the deposited data

Results flagged for a closer look

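Of 47 sets of 4 arrays of detected p53 target genes, 5 held an array that stood apart from the other three, where chance gives about 1 in 20. The gap to the nearest array, as a share of the whole range, was 0.9478 for Mdm2 in norm cell (250.95 against 269 to 270.4), 0.9077 for Mdm4 in norm cell (108 against 88.2 to 90.03), 0.8696 for Mdm4 in oxi cell (74.0 against 97.3 to 101), 0.8637 for Sesn1 in oxi cell (282 against 219 to 228) and 0.8292 for Dcxr in norm cell. The Mdm2 array lies below the others by a small amount beside the difference between the groups, whereas for Sesn1 the array that stands apart is the 1 oxi cell array above all norm cell arrays.

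The change with H2O2 differed between exosomes and cells for Ei24, by -1.65 on the log2 scale, and for Ccng1, by -2.355, both higher in oxi cell and lower in oxi exo. These are the 2 genes detected in norm exo and in both cell groups. The summed mast cell markers were also lower in oxi exo than in norm exo on every array, and their part in these differences was not tested.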

How the results depend on the processing

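In cells, 10 of the 13 genes called higher kept their call under all 11 alternatives other than the methods' paired test, and Mdm2, Polk and Sesn2 lost it under some. The count of genes higher in oxi cell ran from 10 to 12 with a replicate number left out. By the methods' paired test on linear signals, 12 were higher and 1 lower (Rrm2b) at an unadjusted p under 0.05, and 0 were higher after adjustment. Of the 45037 probe sets, 3021 were higher and 4864 lower by this test unadjusted, and 2 and 3 after adjustment. Between oxi exo and norm exo, the 2 genes called lower became 0 with quantile normalization, 1 with scaling to the spiked controls, 0 by the adjusted paired test (3 unadjusted) and 1 to 2 with a replicate number left out. By the adjusted paired test, 0 of all probe sets were called there in either direction, against 1529 higher and 2151 lower unadjusted. For the change in exosomes minus that in cells, the 2 became 0 with quantile normalization, 0 to 2 with a replicate number left out (0 without replicate 1 or 2, 1 without replicate 4), and 11 with the floor at background, which sets most exosome values to the background by its construction.

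Between norm exo and norm cell, the 7 genes called higher became 2 with quantile normalization, 0 with scaling to the spiked controls (24 lower), 3 with the filter on dim probe sets, 14 with the floor, and 3 unadjusted and 1 adjusted by the paired test. Between oxi exo and oxi cell, the 8 became 3 with quantile normalization, 0 with the spiked controls (24 lower), 1 with the filter, 12 with the floor, and 1 unadjusted and 0 adjusted by the paired test. Signs turned for Ccng1 in norm exo against norm cell with quantile normalization (0.23), for Aen there with the floor (0.59), and with the spiked controls for Ei24 (-2.63), Zmat3 (-3.63) and Phlda3 (-3.97) in normal conditions and for Phlda3 (-3.98) and Ddias (-3.84) in oxidative stress, where Ei24 turned to 1.54 with quantile normalization. The cause was not tested. With the background at the 99th percentile, 0 genes in place of 2 were detected in oxi exo.

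Samples of the same replicate number did not deviate together throughout (correlations of -0.0396 to 0.0778 in cells and -0.0618 to 0.445 in exosomes), so beyond the paired test of the methods the numbers are not shown to pair the samples. Without the replicate block, the counts were 13 higher and 0 lower in cells, 0 and 2 in exosomes, 8 and 7 between norm exo and norm cell, and 8 and 10 between oxi exo and oxi cell. With a block across exosomes and cells, 2 genes still differed in their change.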
